A study of Mus musculus with 42 samples.

Results

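The mitosis genes followed here are 50 named genes whose products condense, align and part the chromosomes and then divide the cell, and the proliferation marker Mki67. A member was any listed gene with a transcript cluster of its own on the array. Of the 50 genes, 49 had one, among 19752 genes with a single name in the series; Ccnb1 was not analysed here, and Sgol1 carries its current name Sgo1. All 49 passed the filter on dim genes, which kept genes whose signal passed the median of its array on 2 arrays or more. Of these, 29 would have passed on the 26 arrays of 0, 2 and 8 h and IgG alone, and 20 passed only through arrays of 24 or 72 h of KT3, where they were high. The 20 were Ncapg, Cdc25c, Bub1, Bub1b, Ttk, Birc5, Cdca8, Cenpe, Cenpf, Nuf2, Spc25, Sgo1, Espl1, Kif11, Kif4, Kif2c, Nusap1, Hmmr, Anln and Cdca2. Counts of members by role include them.

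A resting T cell holds little RNA for the machinery of mitosis. Once its receptor is engaged it grows, copies its DNA in S phase, and in G2 switches on a shared set of mitosis genes. Many of these are held down in resting cells by the DREAM complex, which binds CHR elements in their promoters through its MuvB core. In G2 they are switched on by MuvB with B-Myb and FoxM1, together with NF-Y on CCAAT boxes. The RNA of these genes falls again when cells leave the cycle, so in a sorted population it is commonly read as a sign of dividing cells.

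Treg and conventional CD4+ T cells (Tconv) were sorted from spleens of NOD mice, an autoimmune diabetes-prone strain, that carried a Foxp3-IRES-GFP reporter of the transcription factor that defines Treg. KT3 is an antibody to CD3, which carries the signal of the T cell receptor. Mice were injected with it (in vivo), or splenocytes were cultured with 1.25 µg/ml of it (in culture), and RNA was measured at 0, 2, 8, 24 and 72 h on Affymetrix ST1.0 gene arrays. Each of the 20 groups of Treg or Tconv, setting and time had 2 arrays, numbered 1 and 2, and 1 further array per cell type came from mice 24 h after rat IgG, which made 42 arrays in 22 groups. All mice, those at 0 h and those given IgG included, carried the reporter. In vivo mice were females of 8 weeks; in culture number 1 came from females of 9 weeks and number 2 from males of 14 weeks, so sex, age and number cannot be told apart there. The gate took CD4+ cells without B220, CD8a, CD11b or CD11c, by GFP. The labels of cultured Treg give the gate as GFP-, yet Foxp3 measured 11.52 to 12.34 on the log2 scale on those arrays, against 7.03 to 8.20 on cultured Tconv arrays. The 2 cultured arrays of a group thus come from different mice. In vivo the labels do not say so, and the spread between arrays there may be technical. The reported fit estimated each gene's spread once over all 42 arrays. Every p-value, in culture too, thus mixes the gaps between arrays of both settings, and those in culture also hold sex and age.

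Values below are log2 intensities. Differences are log2 differences ± the standard error of a limma fit over all 42 arrays, with n = 2 arrays a group, and a gene was called at a Benjamini-Hochberg adjusted p under 0.05 over 12425 genes. All comparisons with 0 h in one cell type and setting share the same 0 h arrays. Counts under an unadjusted p of 0.05 are a description, given without the share of all genes under that p. Most counts under alternative fits also stand without the share of all genes called by that fit. The Tconv array in culture at 0 h numbered 1 stood apart: its interquartile range was 1.645, against 2.097 to 3.208 on the other arrays, and its mean correlation with the others was 0.787, against 0.91 to 0.965. Results that rest on it are given with and without it. Among in vivo arrays, number 1 carried more RNA of several other cell types than number 2. The mean marker level of B cells, CD8 T cells, macrophages, neutrophils and platelets was higher on number 1 in 10 of 10 groups. B cell markers were at 6.01 to 7.78 on number 1 and 5.20 to 5.65 on number 2. Markers of plasma cells were higher on number 1 in 9 of 10 groups, erythroid precursors in 8, NK cells in 5 and dendritic cells in 4. The mean level of the CD4 T cell markers was 10.34 or more on every array of the series. Most number 1 arrays in vivo are labelled single sorted and most number 2 arrays double sorted. More dividing cells and more RNA per cell cannot be told apart on any of these arrays.

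Upstream sequence of 4 leading members is shown because the G2 program is known to act through promoter letters that these sequences hold. Each run gives the 250 bases before the transcript start, 5′ to 3′ on the gene's own strand, from RefSeq on GRCm38.p6. Capitals mark TTTGAA or TTCGAA, the letters of the CHR element, and CCAAT, on either strand. In these runs no CHR letters overlap a CCAAT. Mki67 lies on the minus strand at chr7:135716380-135716629, Top2a on the minus strand at chr11:99024190-99024439, Ncapg on the plus strand at chr5:45669675-45669924 and Cdk1 on the minus strand at chr10:69352913-69353162.
Mki67: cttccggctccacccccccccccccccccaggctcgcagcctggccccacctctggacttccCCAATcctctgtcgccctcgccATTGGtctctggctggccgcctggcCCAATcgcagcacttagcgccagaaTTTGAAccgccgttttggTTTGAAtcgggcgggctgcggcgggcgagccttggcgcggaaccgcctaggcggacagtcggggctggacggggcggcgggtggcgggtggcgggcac
Top2a: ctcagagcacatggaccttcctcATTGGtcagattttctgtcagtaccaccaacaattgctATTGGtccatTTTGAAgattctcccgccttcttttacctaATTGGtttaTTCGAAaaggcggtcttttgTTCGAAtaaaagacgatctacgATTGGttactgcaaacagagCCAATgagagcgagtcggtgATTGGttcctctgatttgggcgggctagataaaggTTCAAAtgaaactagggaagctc
Ncapg: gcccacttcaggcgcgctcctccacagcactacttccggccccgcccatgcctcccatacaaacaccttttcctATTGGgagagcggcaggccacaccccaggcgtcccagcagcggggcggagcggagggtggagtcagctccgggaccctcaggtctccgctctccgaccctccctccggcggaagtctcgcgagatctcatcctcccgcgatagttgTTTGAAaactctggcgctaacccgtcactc
Cdk1: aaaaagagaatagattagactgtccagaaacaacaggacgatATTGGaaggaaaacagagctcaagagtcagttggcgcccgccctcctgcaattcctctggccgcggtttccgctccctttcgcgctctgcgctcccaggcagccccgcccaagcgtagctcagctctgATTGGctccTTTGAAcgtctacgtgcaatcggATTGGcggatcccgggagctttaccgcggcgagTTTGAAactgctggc
Counting the base before the transcript start as -1, Mki67 holds TTTGAA from -116 and -98, Cdk1 from -71 and -15, and Ncapg from -30. Top2a holds TTTGAA from -179 and, on the other strand, from -23, and TTCGAA, which reads the same on both strands, from -140 and -120. Over the window of 250 bases before to 50 after the start, 33 of 39 members with a listed promoter (84.6%) held CHR letters, against 19.4% of 27025 promoters of all genes. CCAAT was found in 28 of the 39 (71.8%), against 37.9% of all, and both in 27 of the 39 (69.2%), against 7.7% of all. The letters of the E2F site, which marks S phase promoters, were searched on both strands as TTCCCGC, as the variant TTGGCGC and as the variant TTCGCGC, and were found in 9 of the 39 (23.1%), against 8.21% of all. The letters TTGG are common to TTGGCGC and the reverse of CCAAT, so 1 stretch can count for both. These are matches of letters, not sites shown to be bound. Spc24, Smc4, Aurkb, Tpx2, Incenp, Ccna2, Cdca2, Cdc25c, Kif20a and Dlgap5 had no listed promoter.

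The mitosis genes moved as a block in time, and the block rose at different times in the 2 settings. The median of the 49 members on the 2 arrays of a group was highest in cultured Treg at 72 h, at 9.35 and 8.98. Next came Tconv in vivo at 24 h, at 8.17 and 8.20, and Treg in vivo at 24 h, at 8.04 and 7.49. Unstimulated cells held medians of 6.82 and 6.56 in Treg in vivo, 6.29 and 6.08 in Tconv in vivo, 6.14 and 6.32 in cultured Treg, and 6.11 and 5.95 in cultured Tconv. Of the 49 members 47 had their highest group mean in cultured Treg at 72 h, and for 39 the next highest was Tconv in vivo at 24 h. The 2 exceptions were Kif23, a motor of the central spindle, which peaked in cultured Tconv at 2 h, and Smc4, a condensin ATPase, which was highest in Treg in vivo at 0 h. Across the 20 group means, Nuf2, Birc5, Kif20a and Kif4 followed the members' median profile with a Pearson r of 0.99 or more, and Smc4, Kif23 and Cenpa followed it least, at 0.49, 0.53 and 0.69.

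**Figure D1:**
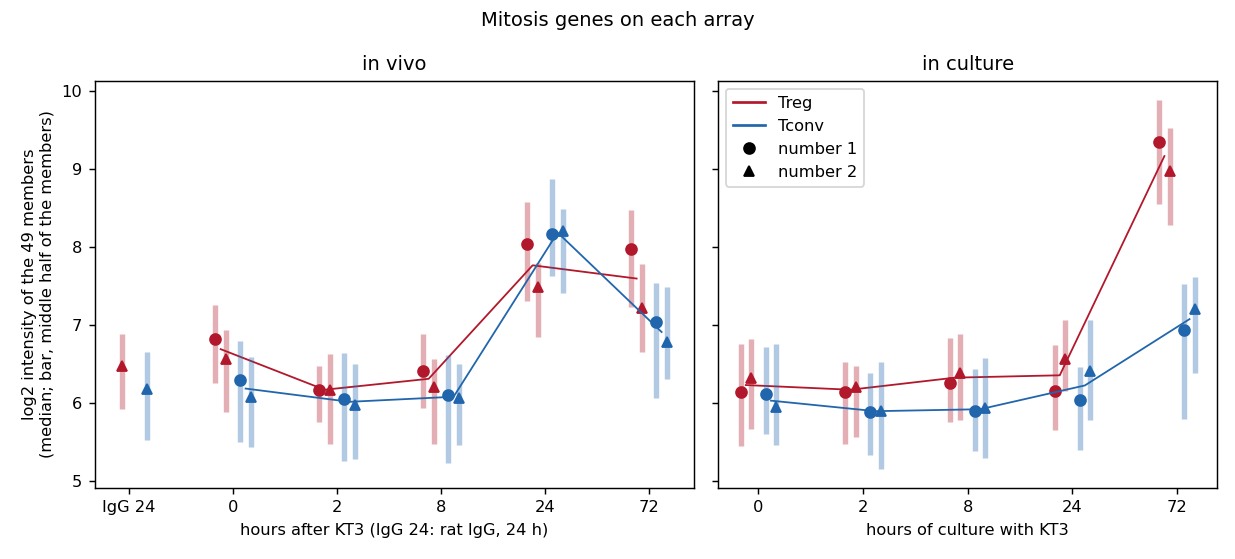
Median log2 intensity of the 49 mitosis genes on each array (symbols, 2 arrays a group; bars, 25th to 75th percentile of the genes; lines join group means) by hours after KT3 or rat IgG, in vivo (left) and in culture (right), for Treg and Tconv. In vivo medians peak at 24 h in both cell types, while in culture Treg reach 9.35 and 8.98 at 72 h and Tconv 6.94 and 7.21.

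**Figure D2:**
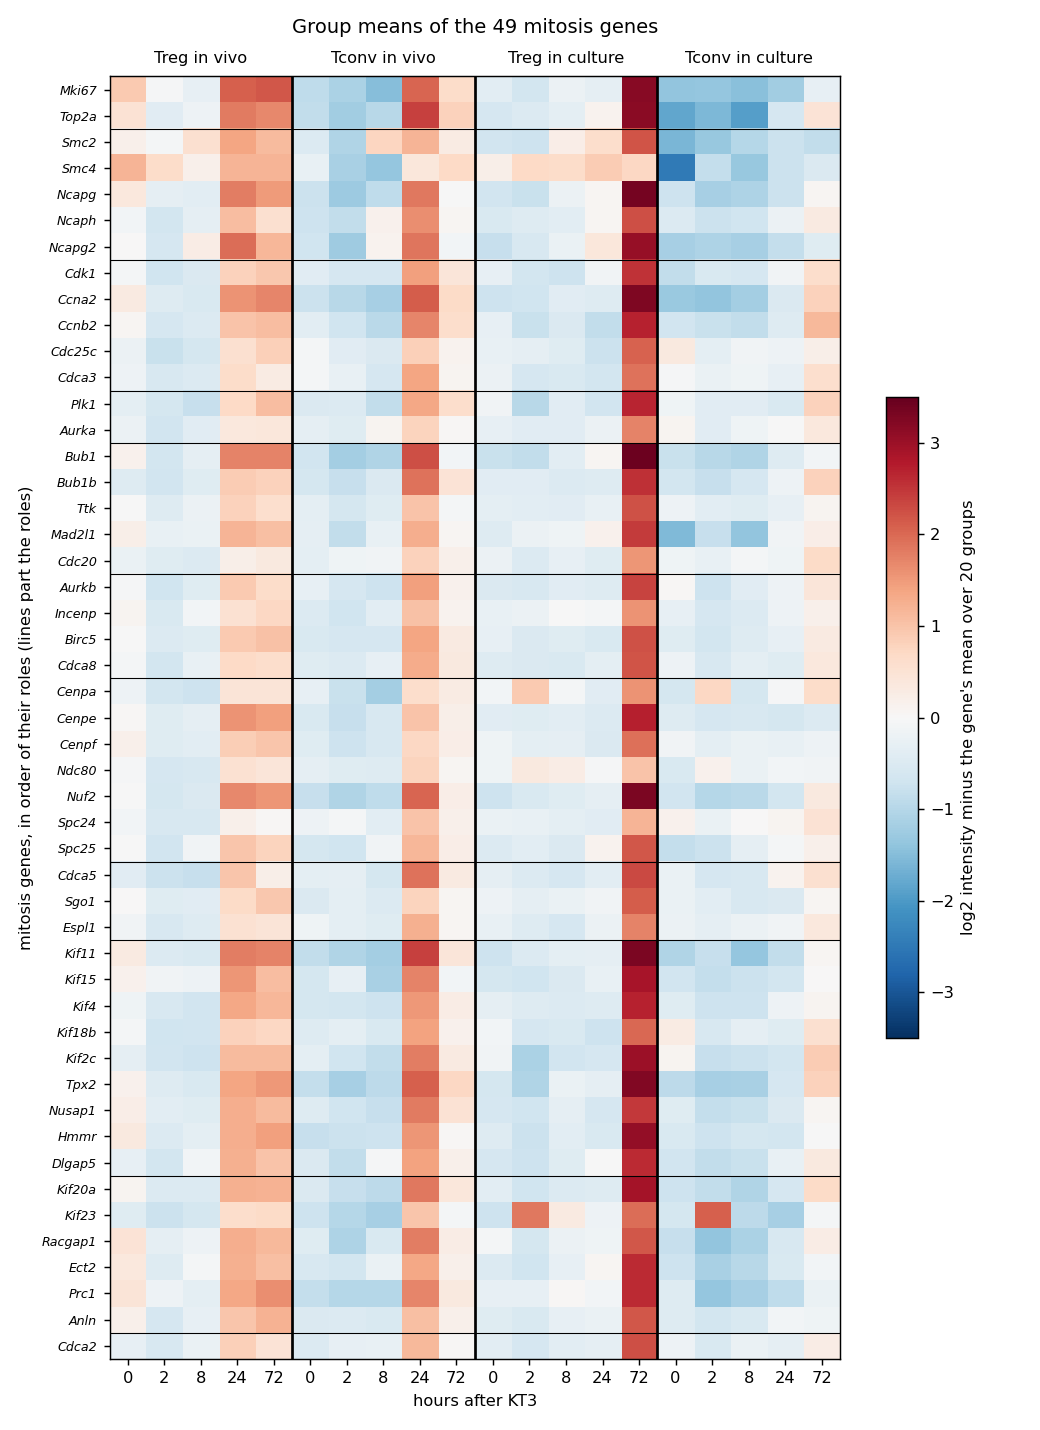
Group mean log2 intensity of each mitosis gene minus that gene's mean over the 20 groups of 2 arrays, by cell type, setting and hours after KT3, with genes in order of role. Red marks levels above the gene's mean: 47 of 49 rows are reddest in cultured Treg at 72 h, and Kif23 is red at 2 h in culture.

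Resting Treg of the spleen already held more of several mitosis RNAs than resting Tconv. At 0 h in vivo 5 of 49 members were higher in Treg and 0 lower, where 2.58% of all genes tested were higher and 0.515% lower. Mki67, the antigen Ki-67 that coats mitotic chromosomes, measured 8.85 and 8.39 in Treg, against 6.90 and 6.72 in Tconv, a difference of 1.81 ± 0.39 (adjusted p = 0.0058). Top2a, the topoisomerase that untangles sister DNA, measured 8.37 and 7.81 in Treg, against 6.92 and 6.54 in Tconv (1.36 ± 0.37, adjusted p = 0.0408). The groups did not overlap for either gene. Prc1, which bundles midzone microtubules, differed by 1.27 ± 0.32, Kif11, the motor that pushes spindle poles apart, by 1.16 ± 0.33, and Hmmr, a spindle microtubule protein, by 1.14 ± 0.25. The median over members was 0.51, against 0.55 and 0.43 within numbers 1 and 2, and 46 of 49 were on the positive side. The count fell to 0 without the Treg array numbered 1 and without the Tconv array numbered 2, and was 3 without the Tconv array numbered 1; it was 8 with the replicate number as a block. In culture at 0 h 3 members were higher in Treg and 0 lower (8.68% and 2.56% of all genes): Smc4 by 2.68 ± 0.79, Top2a by 1.24 ± 0.37 and the checkpoint protein Mad2l1 by 1.12 ± 0.31. None of the 3 was called without the Tconv array that stood apart. On it Smc4, at 6.15, and Mad2l1, at 6.21, were at their lowest of the 42 arrays, and Top2a was at 5.60. With quantile normalization 4 members were higher and 1 lower.

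In the first 8 h after injection few mitosis genes changed. At 2 h 0 of 49 members were called in Treg and 0 in Tconv by limma, where 5.04% of all genes were higher and 1.42% lower in Treg, and 3.04% and 0.467% in Tconv. In Treg the fitted difference of all 49 was negative at 2 h, with a median of -0.56 (-0.69 and -0.39 within numbers 1 and 2) and 17 members under an unadjusted p of 0.05. Mki67 measured 7.66 and 7.64 in Treg at 2 h, against 8.85 and 8.39 at 0 h, without overlap, and the difference was -0.97 ± 0.39 (adjusted p = 0.178). With the replicate number as a block 4 members were called lower, with array weights 6, and without the cultured Tconv array that stood apart 3. In Tconv at 2 h the median was -0.21, with 1 member under an unadjusted p of 0.05.

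At 8 h 0 of 49 members were called in Treg by limma, where 6.36% of all genes were higher and 3.31% lower; 12 members were under an unadjusted p of 0.05 and the median was -0.43. In Tconv at 8 h, when 14.4% of all genes were higher and 6.54% lower, 1 member rose and 1 fell. Ncaph, the kleisin that closes the condensin ring, measured 7.08 and 7.03 in Tconv at 8 h, against 6.29 and 6.13 at 0 h (0.85 ± 0.29, adjusted p = 0.0384). Cenpa, the histone H3 variant of centromeres, measured 7.51 and 7.39 at 8 h, against 8.31 and 8.38 at 0 h, and fell by 0.89 on the log2 scale (SE 0.23, adjusted p = 0.00615). Without either Tconv array numbered 2, at 0 or at 8 h, neither was called, and without either numbered 1 a single call was left. With quantile normalization 3 members were higher and 1 lower.

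At 24 h after injection nearly the whole set was up in Tconv: 46 of 49 members rose and 0 fell, where 2.27% of all genes tested rose and 0.129% fell. The median over members was 1.86, with 1.86 and 1.96 within numbers 1 and 2, and the median over all genes was -0.01. Of the 29 members that needed no 24 or 72 h array to be tested, 27 rose. Mki67 measured 9.43 and 10.04 in Tconv at 24 h, against 6.90 and 6.72 at 0 h (2.92 ± 0.39, adjusted p = 2.42e-05). Top2a showed the largest rise, to 9.85 and 10.08 at 24 h against 6.92 and 6.54 at 0 h, a difference of 3.24 ± 0.37 or 9.44-fold (adjusted p = 2.91e-06). Both genes lay above all their 0 h and IgG values on both arrays at 24 h.

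Among the condensin subunits, which compact chromosomes, 3 of 5 rose. Ncapg, a HEAT-repeat subunit, measured 7.73 and 8.04 in Tconv at 24 h, against 5.03 and 5.55 at 0 h (2.60 ± 0.36, adjusted p = 3.47e-05). Its groups were far apart. The ATPases Smc2 (1.68 ± 0.51, adjusted p = 0.0969) and Smc4 (0.65 ± 0.79, adjusted p = 0.925) were not called. Of CDK1, the kinase that drives mitotic entry, and its partners, 4 of 5 rose. Cdk1 measured 8.51 and 8.25 at 24 h, against 6.48 and 6.59 at 0 h (1.85 ± 0.27, adjusted p = 9.69e-05), and the A-type cyclin Ccna2 rose by 2.87 ± 0.39. Cdc25c, a phosphatase that activates CDK1, was not called (0.90 ± 0.34, adjusted p = 0.274) and was above the array median on 4 of 42 arrays. Both mitotic kinases rose: Plk1 measured 9.18 and 8.36 at 24 h, against 7.37 and 6.46 at 0 h (1.86 ± 0.37, adjusted p = 0.00309), and Aurka rose by 1.10 ± 0.24.

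All 5 genes of the spindle checkpoint, which holds anaphase until chromosomes are attached, rose with a median of 1.58. Bub1, its kinase, measured 7.53 and 7.97 in Tconv at 24 h, against 5.00 and 4.65 at 0 h (2.92 ± 0.39, adjusted p = 2.26e-05). All 4 genes of the chromosomal passenger complex rose, with Aurkb, its kinase, at 9.16 and 8.28 at 24 h, against 7.18 and 6.83 at 0 h (1.72 ± 0.30, adjusted p = 0.000605). All 7 centromere and kinetochore genes rose, among them Nuf2, which binds microtubules with Ndc80, by 2.83 ± 0.31. Cenpa rose least of these 7: it measured 9.26 and 9.25 at 24 h, against 8.31 and 8.38 at 0 h (0.91 ± 0.23, adjusted p = 0.0282). All 3 genes of cohesin protection and cleavage rose. Espl1, the separase that cuts cohesin, measured 8.17 and 7.54 at 24 h, against 6.33 and 6.57 at 0 h (1.40 ± 0.22, adjusted p = 0.000158). Many genes of these roles passed the filter on dim genes only through 24 or 72 h arrays. They were Bub1, Bub1b, Ttk, Birc5, Cdca8, Cenpe, Cenpf, Nuf2, Spc25, Sgo1 and Espl1.

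All 9 spindle motor and microtubule genes rose, with a median of 2.28. Among them Kif11, Kif4, Kif2c, Nusap1 and Hmmr passed the filter on dim genes only through 24 or 72 h arrays. Kif11 measured 8.71 and 9.07 in Tconv at 24 h, against 5.70 and 5.62 at 0 h (3.23 ± 0.33, adjusted p = 6.78e-07). All 6 genes of the central spindle and cytokinesis rose too. Anln, the scaffold of the contractile ring, measured 5.98 and 6.66 at 24 h, against 4.82 and 4.70 at 0 h (1.56 ± 0.27, adjusted p = 0.000627). Cdca2, which brings protein phosphatase 1 to chromatin, measured 7.73 and 7.41 at 24 h, against 5.98 and 5.92 at 0 h (1.62 ± 0.23, adjusted p = 5.07e-05). Anln and Cdca2 also passed that filter only through such arrays. Of the 46 calls 34 held under every alternative run for them, which were 15, or 14 for Hmmr, which the stricter filter on dim genes removed. Over the same comparison the mean level of Treg markers, which include Il2ra and Ctla4, genes that activated Tconv also express, differed by 0.79, that of CD8 T cells by 0.29, NK cells by 0.26, CD4 T cells and neutrophils by 0.11 each and platelets by 0.03. Those of macrophages differed by -0.40, B cells by -0.26, dendritic cells by -0.21, plasma cells by -0.11 and erythroid precursors by -0.06. Their part in the result was not tested.

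Treg responded at the same time with smaller fitted differences. At 24 h in vivo 10 of 49 members rose in Treg and 0 fell, where 0.451% of all genes rose and 0.0322% fell. Among the 29 members that needed no 24 or 72 h array to be tested, 6 rose. Over the 49 members the median was 0.98, and 47 were under an unadjusted p of 0.05. Ncapg2, a condensin II subunit, rose by 1.94 ± 0.43 (adjusted p = 0.0324) and Nuf2 by 1.71 ± 0.31 (adjusted p = 0.00684). Dlgap5, which stabilises kinetochore fibres, measured 8.36 and 7.79 in Treg at 24 h, against 6.79 and 6.26 at 0 h (1.55 ± 0.24, 2.92-fold, adjusted p = 0.00165). The chromokinesin Kif4, which works on mitotic chromosome arms, rose by 1.50 ± 0.28. Kif11 measured 8.70 and 7.91 in Treg at 24 h, against 7.04 and 6.60 at 0 h, and was called (1.48 ± 0.33, adjusted p = 0.0324). Cdca2 was also called, at 7.63 and 6.92 against 6.34 and 5.98 at 0 h (1.11 ± 0.23, adjusted p = 0.0235). Other members were higher on both arrays yet missed the threshold. Mki67 measured 9.86 and 9.72 in Treg at 24 h, against 8.85 and 8.39 at 0 h, without overlap, and was not called (1.17 ± 0.39, adjusted p = 0.321). Bub1 measured 7.81 and 6.66 at 24 h, against 5.90 and 5.42 at 0 h, and was not called either (1.57 ± 0.39, adjusted p = 0.0674).

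The 2 Treg arrays at 24 h differed from each other: 48 of 49 members were higher on number 1, by a median of 0.65, and its neutrophil markers measured 6.94, against 5.56 on number 2, and its B cell markers 6.40, against 5.20. Markers of NK cells measured 5.75 and 5.56 in Treg at 24 h, against 5.01 and 5.03 at 0 h. The part of these cells in the result was not tested; the median rise over members was 1.16 within number 1 and 0.86 within number 2. The count of 10 became 0 without the 24 h array numbered 1 and 23 without the one numbered 2. It became 3 and 0 without the 0 h arrays numbered 1 and 2, 23 with the replicate number as a block, and 4 with sorting rounds as a factor. Without the cultured Tconv array that stood apart it was 16.

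The difference between the Treg and the Tconv response at 24 h in vivo had a median of -0.90 over members, with 48 of 49 on the negative side, but 0 were called by limma, where 0.0241% of all genes were higher and 0.0402% lower; 26 members were under an unadjusted p of 0.05. Top2a had the largest such difference (-1.93 ± 0.53, adjusted p = 0.481). At 2, 8 and 72 h 0 members were called as well, with 1, 2 and 0 under an unadjusted p of 0.05, where 0.0161%, 0.0966% and 0.00805% of all genes were higher and 0.0322%, 0.137% and 0.00805% lower. The levels at 24 h lay close together: Top2a measured 9.64 and 9.16 in Treg and 9.85 and 10.08 in Tconv.

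**Figure D3:**
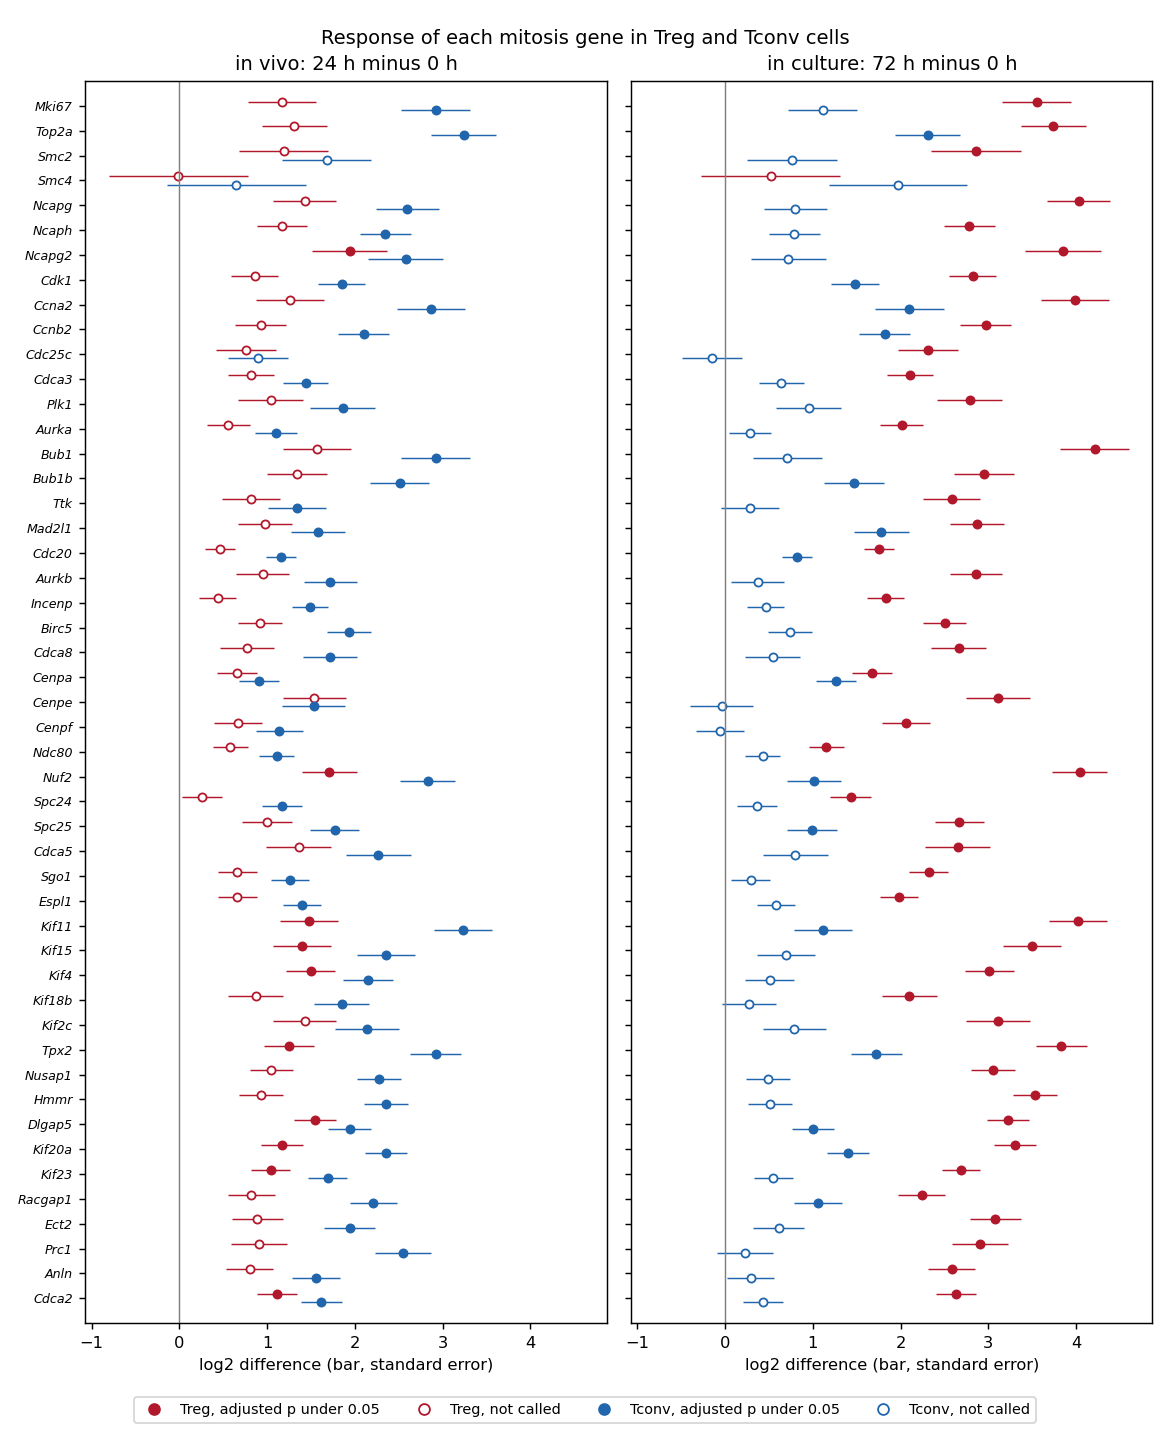
Log2 difference from 0 h (bars, standard error of the limma fit) of each mitosis gene in Treg and Tconv, 24 h after injection of KT3 (left) and after 72 h in culture with KT3 (right). Filled symbols passed an adjusted p of 0.05. In vivo most Tconv values lie to the right of the Treg values, and in culture 48 of 49 Treg values lie to the right of the Tconv values.

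By 72 h in vivo much of the set had come down in Tconv. There 27 of 49 members were lower at 72 h than at 24 h and 0 higher, where 0.813% of all genes were lower and 0.0483% higher, and the median was -1.19. Of the 29 members that needed no 24 or 72 h array to be tested, 15 were lower. Bub1 measured 5.06 and 5.79 in Tconv at 72 h, against 7.53 and 7.97 at 24 h, and fell by 2.33 on the log2 scale (SE 0.39, adjusted p = 0.00223). Ncapg2 fell by 1.97, Kif11 by 1.96 and Ncapg by 1.84. The count was 5 without the 24 h or without the 72 h array numbered 1, and 6 without the 72 h array numbered 2. In Treg 0 of 49 were called between 72 h and 24 h by limma, where 0.0483% of all genes were higher and 0.0241% lower; the median was -0.08, and 1 member was under an unadjusted p of 0.05. Bub1 measured 7.81 and 6.67 in Treg at 72 h, against 7.81 and 6.66 at 24 h. This contrast between Treg and Tconv was not itself tested.

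Against 0 h, 1 member was called at 72 h in vivo in each cell type. In Tconv it was Tpx2, a spindle assembly factor that activates Aurora A, at 7.50 and 7.52 at 72 h against 6.17 and 5.78 at 0 h (1.54 ± 0.29, adjusted p = 0.0106); 0.266% of all genes were higher and 0.0241% lower. In Treg it was Dlgap5, at 8.09 and 7.55 at 72 h against 6.79 and 6.26 at 0 h (1.29 ± 0.24, adjusted p = 0.046); 0.0241% of all genes were higher and 0 of them lower. The medians over members were 0.94 in Treg and 0.71 in Tconv, and 43 members in Treg and 31 in Tconv were under an unadjusted p of 0.05. Tpx2 was not called without the Tconv arrays of 72 h, either number, or the 0 h array numbered 2. Dlgap5 was not called without either Treg array of 0 h or number 1 of 72 h, and 8 members were called without number 2 of 72 h. With the replicate number as a block, 11 members were called in Treg and 6 in Tconv. Neutrophil markers measured 8.13 and 5.49 in Treg at 72 h, against 6.40 and 5.91 at 0 h, and 7.58 and 5.68 in Tconv, against 6.53 and 5.69 at 0 h. B cell markers measured 7.39 and 5.39 in Treg at 72 h, against 6.78 and 5.65 at 0 h. On the Treg array of 72 h numbered 1, where both were high, 48 of 49 members were higher than on number 2, by a median of 0.64. The part of these cells in the result was not tested.

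The rise at 24 h was also seen against rat IgG. In Tconv 41 of 49 members were higher 24 h after KT3 than 24 h after IgG and 0 lower, where 1.4% of all genes were higher and 0.0724% lower. Bub1 differed by 3.15 ± 0.47 and measured 4.59 on the IgG array, and Kif11 differed by 3.05 ± 0.40 and measured 5.84 there. Top2a differed by 2.98 ± 0.46, and Mki67 by 2.88 ± 0.48, with 6.85 on the IgG array. In Treg 6 members were higher and 0 lower, where 0.274% of all genes were higher and 0 lower: Ncapg2 by 2.44 ± 0.52, Nuf2 by 2.00 ± 0.38, Tpx2 by 1.80 ± 0.36, Ncaph by 1.67 ± 0.36 and Dlgap5 by 1.61 ± 0.29 among them. Each IgG group is 1 array, numbered 2, and its spread was assumed to equal that of the other groups. The members called include some that passed the filter on dim genes only through 24 or 72 h arrays, among them Bub1, Kif11 and Nuf2. Within number 2 alone the median over members for KT3 minus IgG was 0.89 in Treg and 1.76 in Tconv, and that for IgG minus 0 h was -0.02 in Treg and 0.12 in Tconv. The Treg count was 0 without the 24 h array numbered 1, 25 without that numbered 2, and 15 without the cultured Tconv array that stood apart.

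In culture 2 members rose within 2 h in both cell types, long before most of the others. As a count this did not stand out from all genes. In cultured Treg 2 of 49 members rose at 2 h, where 4.02% of all genes rose. In cultured Tconv 3 of 49 rose, where 19.5% of all genes rose. Kif23, a kinesin that forms the centralspindlin complex of the dividing cell with Racgap1, measured 9.16 and 8.98 in Treg at 2 h, against 6.38 and 6.64 at 0 h (2.56 ± 0.22, 5.9-fold, adjusted p = 2.02e-08). In Tconv it measured 9.67 and 9.01 at 2 h, against 6.47 and 6.76 at 0 h (2.73 ± 0.22, 6.62-fold, adjusted p = 3.87e-09). The 4 arrays at 2 h lay far above the 4 arrays at 0 h, and the call held under all 14 alternatives in Treg and all 13 in Tconv. In vivo Kif23 stayed low at that time, at 6.31 and 6.63 in Treg and 6.16 and 6.30 in Tconv at 2 h, against 6.92 and 6.68 in Treg and 6.63 and 6.41 in Tconv at 0 h. Its partner Racgap1 was not called in culture at 2 h in either cell type.

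Cenpa rose with it. It measured 9.64 and 9.46 in cultured Treg at 2 h, against 8.40 and 8.66 at 0 h (1.02 ± 0.23, adjusted p = 0.00649). In cultured Tconv it measured 9.34 and 9.41 at 2 h, against 7.40 and 8.61 at 0 h (1.37 ± 0.23, adjusted p = 0.000212). The value of 7.40 is from the array that stood apart: without it the difference was 0.76 (adjusted p = 0.0118) for Cenpa and 2.58 (adjusted p = 4.34e-07) for Kif23. With array weights Cenpa was not called in Tconv (adjusted p = 0.0619). Both genes were lower on every array at 8 h than at 2 h. At 8 h Kif23 measured 7.60 and 7.51 in Treg and 6.34 and 6.33 in Tconv, and Cenpa 8.61 and 8.56 in Treg and 7.80 and 8.23 in Tconv. Kif23 was still above its 0 h level in Treg at 8 h (1.05 ± 0.22, adjusted p = 0.00436), as the single called member of 49, where 4.52% of all genes were higher and 1.09% lower. The Treg response at 8 h exceeded the Tconv response for Kif23 (1.33 ± 0.32, adjusted p = 0.0498) and for 0 other members, where 0.41% of all genes were higher and 0.241% lower; its call held under 5 of 17 alternatives.

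**Figure D4:**
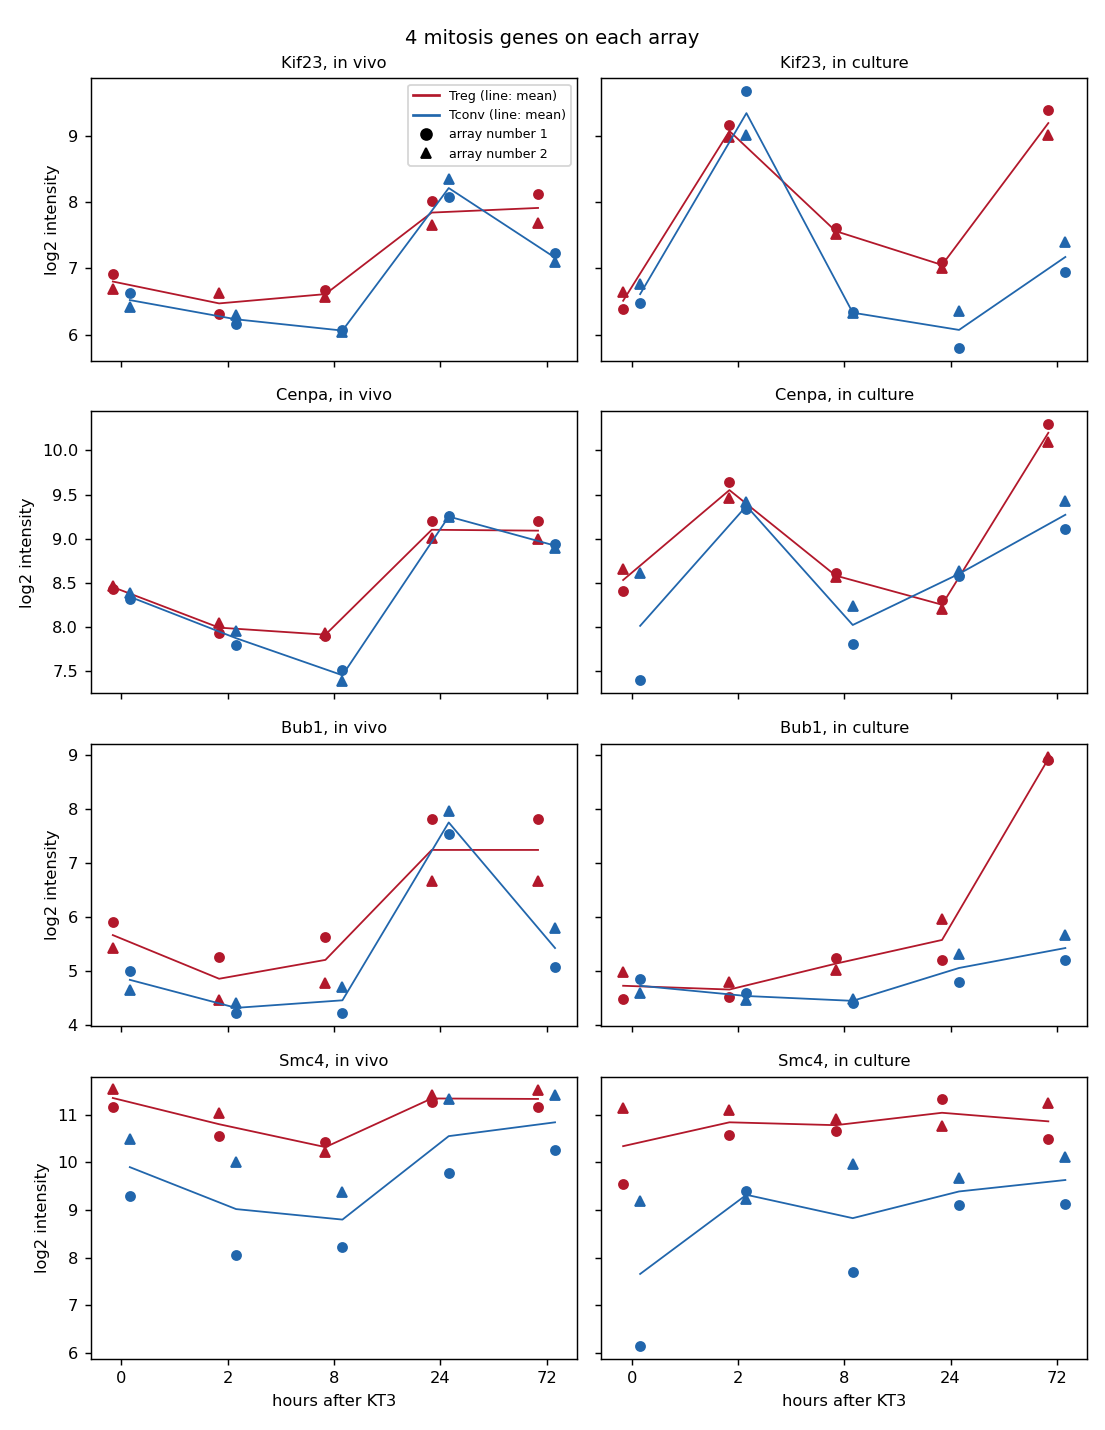
Log2 intensity of Kif23, Cenpa, Bub1 and Smc4 on each array (symbols by array number) with group means (lines) by hours after KT3, in vivo (left) and in culture (right), for Treg and Tconv. Kif23 and Cenpa are high at 2 h in culture and not in vivo, Bub1 follows the main wave, and the Smc4 arrays of one group lie as far apart as 6.15 and 9.18. The value of 6.15 is from the cultured Tconv array of 0 h that stood apart.

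Over the whole set at 2 h in culture, 2 of 49 members rose in Treg and 0 fell, where 4.02% of all genes rose and 1.63% fell. In Tconv 3 rose and 2 fell, where 19.5% of all genes rose and 6.8% fell. The further Tconv calls were Ndc80, of the kinetochore complex with Nuf2 (0.70 ± 0.20), and 2 that fell: Prc1 by 0.90 (SE 0.32) and Kif18b, a microtubule-end motor, by 0.86 (SE 0.31). With median centring of each array 4 were higher and 0 lower, and with quantile normalization 4 and 3. With the replicate number, and so sex and age, as a block, 9 members were called in Tconv and 4 in Treg. Leaving out the Tconv arrays in turn moved that count of 5 to 2 without the array that stood apart or number 1 of 2 h, and to 10 without number 2 of 0 h. In Treg it was 1 without either array numbered 1. At 8 h in culture 0 members were called in Tconv by limma, where 15.7% of all genes were higher and 3.22% lower, and 2 were under an unadjusted p of 0.05; without the 0 h arrays numbered 1 and 2 the count was 1 and 5.

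At 24 h, when the set peaked in vivo, cultured cells showed little of it. In cultured Treg 0 of 49 members were called by limma, where 5.01% of all genes were higher and 0.934% lower, and 6 were under an unadjusted p of 0.05; 2 were called without the 0 h array numbered 2. In cultured Tconv 4 rose and 0 fell, where 19.4% of all genes rose and 7.48% fell: Mad2l1 by 1.43 ± 0.31, Top2a by 1.23 ± 0.37, Spc25, of the Ndc80 complex, by 0.75 ± 0.28 and Cdk1 by 0.73 ± 0.27. The median over members was 0.13 and that over all genes was 0.23. The count in Tconv was 0 without that array, 8 without the other 0 h array, 1 without number 2 of 24 h and 8 with the replicate number as a block, and with quantile normalization 3 were higher and 1 lower.

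By 72 h in culture the set had risen in Treg with a larger median difference than in any other group. Of 49 members 48 rose and 0 fell, where 7.34% of all genes rose and 1.77% fell, and the median over members was 2.82, with 2.90 and 2.60 within numbers 1 and 2, against 0.05 over all genes. Of the 29 members that needed no 24 or 72 h array to be tested, 28 rose. Each of the 48 calls held under every alternative run for it, which were 14, or 13 for Ttk and Hmmr, which the stricter filter on dim genes removed. Mki67 measured 10.70 and 11.07 in cultured Treg at 72 h, against 6.75 and 7.93 at 0 h (3.55 ± 0.39, adjusted p = 4.91e-07). Top2a measured 10.78 and 10.70, against 6.61 and 7.39 at 0 h (3.74 ± 0.37, adjusted p = 1.15e-07). Both arrays at 72 h lay above every other array of the series for both genes.

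Smc4 was the member not called (0.52 ± 0.79, adjusted p = 0.715), and the other 4 condensin genes rose. Ncapg measured 9.40 and 9.41 at 72 h, against 4.91 and 5.84 at 0 h (4.03 ± 0.36, adjusted p = 2.12e-08). RNA of the mitotic entry genes analysed here, which leave out Ccnb1, was up. All 5 genes of the CDK1 group rose, with Cdk1 at 9.71 and 9.23, against 6.66 and 6.64 at 0 h (2.82 ± 0.27, adjusted p = 8.33e-08). Plk1 measured 10.34 and 9.81, against 7.50 and 7.07 at 0 h (2.79 ± 0.37, adjusted p = 7.59e-06), and the kinase of the checkpoint moved further still. Bub1 showed the largest rise of any member, at 8.90 and 8.97 against 4.48 and 4.97 at 0 h (4.21 ± 0.39, 18.5-fold, adjusted p = 3.84e-08). Aurkb measured 9.92 and 9.35, against 6.72 and 6.82 at 0 h (2.86 ± 0.30, adjusted p = 2.11e-07).

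The kinetochore genes rose by 1.15 to 4.04, Ndc80 least and Nuf2 most. Cenpa measured 10.30 and 10.10 in cultured Treg at 72 h, against 8.40 and 8.66 at 0 h (1.67 ± 0.23, adjusted p = 1.26e-05), and so came up again after its peak at 2 h. Kif23 did the same, at 9.38 and 9.01 at 72 h (2.69 ± 0.22, adjusted p = 7.3e-09). Genes of cohesin cleavage, of the spindle and of the ring of cytokinesis were up as well, with no overlap between 72 and 0 h for those named here. Espl1 measured 8.55 and 8.13, against 6.39 and 6.34 at 0 h (1.98 ± 0.22, adjusted p = 4.84e-07). Kif11 measured 9.89 and 9.72, against 5.49 and 6.08 at 0 h (4.02 ± 0.33, adjusted p = 4.5e-09). Anln measured 7.66 and 7.19, against 4.79 and 4.91 at 0 h (2.58 ± 0.27, adjusted p = 2.42e-07), and Cdca2 8.85 and 8.55, against 6.18 and 5.96 at 0 h (2.63 ± 0.23, adjusted p = 1.59e-08). The rise came between 24 and 72 h: 47 of 49 members were higher at 72 h than at 24 h and 0 lower, where 2.76% of all genes were higher and 1.41% lower. The 2 not called were Smc2 and Smc4. Among the 29 members that needed no 24 or 72 h array to be tested, 27 were higher. Among markers of other cells, those of NK cells, of which Eomes alone passed the filter on dim genes, were higher in cultured Treg at 72 h. They measured 5.51 and 5.60, against 4.98 and 5.07 at 0 h. Markers of CD8 T cells differed by 0.15 and of plasma cells by 0.14. Those of neutrophils differed by -0.53, platelets by -0.36, macrophages by -0.33, dendritic cells by -0.29, erythroid precursors by -0.28 and B cells by -0.10. Treg markers differed by 0.50 and CD4 T cell markers by -0.22. The part of these cells in the result was not tested.

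Cultured Tconv rose far less at 72 h. Of 49 members 15 rose and 0 fell, where 6.65% of all genes rose and 0.901% fell, with a median of 0.72 (0.48 and 0.91 within numbers 1 and 2) against 0.15 over all genes. Among the 29 members that needed no 24 or 72 h array to be tested, 11 rose. Top2a measured 7.61 and 8.51 in cultured Tconv at 72 h, against 5.60 and 5.91 at 0 h (2.31 ± 0.37, adjusted p = 0.00042). Ccna2 rose by 2.10 ± 0.39, the B-type cyclin Ccnb2 by 1.82 ± 0.29, Mad2l1 by 1.78 ± 0.31 and Cdk1 by 1.48 ± 0.27. Mki67 measured 6.84 and 7.99 at 72 h, against 5.88 and 6.74 at 0 h, and was not called (1.11 ± 0.39, adjusted p = 0.0716). Bub1 measured 5.19 and 5.66, against 4.85 and 4.58 at 0 h, and was not called either (0.71 ± 0.39, adjusted p = 0.201). Among the condensin subunits 0 of 5 were called, with a median of 0.79, and among the passenger genes 0 of 4 (0.50). Among the genes of cohesin protection and cleavage 0 of 3 were called (0.58). The count of 15 was 7 without the 0 h array that stood apart, when Mad2l1 was not called (1.37, adjusted p = 0.0628), 8 without number 2 of 72 h and 0 with array weights. Between 24 and 72 h 3 members rose in Tconv, Ccnb2 by 1.59 ± 0.29, Kif20a by 1.25 ± 0.24 and Kif23 by 1.10 ± 0.22, and 0 fell, where 0.0644% of all genes rose and 0.0402% fell. That count was 0 to 5 over single arrays left out and 7 with the replicate number as a block. Markers of NK cells measured 5.70 and 5.88 in cultured Tconv at 72 h, against 5.08 and 4.96 at 0 h, and those of Treg 7.99 and 8.05, against 6.85 and 6.58 at 0 h. Their part in the result was not tested.

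Tested directly, the Treg response at 72 h in culture was larger than the Tconv response for 34 of 49 members and smaller for 0, where 1.26% of all genes differed upward and 0.523% downward. The median of the difference was 2.11. Of the 29 members that needed no 24 or 72 h array to be tested, 15 were called. Bub1 differed most, by 3.50 ± 0.55 (adjusted p = 0.000549), followed by Ncapg (3.23 ± 0.51), Cenpe, a kinetochore motor (3.15 ± 0.51), and Ncapg2 (3.13 ± 0.60). All 9 spindle motor and microtubule genes and all 4 passenger genes were among the 34. Among those not called were Cdk1 (1.34 ± 0.39), Ccna2 (1.90 ± 0.55), Ccnb2 (1.15 ± 0.42) and Top2a (1.43 ± 0.53), which had risen in Tconv as well. Other members that had risen in Tconv, namely Nuf2, Spc25, Kif11, Tpx2, Dlgap5 and Kif20a, were among the 34. At 72 h itself the levels of all 49 members were higher in Treg within number 1, by a median of 2.34, and within number 2, by 1.88. The count was 23 to 41 over single arrays left out, 28 of them without the Tconv array that stood apart, and 0 with array weights. At 2 and 24 h in culture 0 members were called for this difference by limma, with 0 and 2 under an unadjusted p of 0.05; 0.105% and 0.201% of all genes were higher, and 0.0402% and 0.29% lower. Without the other Tconv array of 0 h those counts were 1 and 3.

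The settings were also compared through their responses, in vivo minus in culture. In Tconv at 24 h 31 of 49 members had the larger response in vivo and 0 in culture, where 0.604% of all genes differed upward and 0.443% downward. Of the 29 members that needed no 24 or 72 h array to be tested, 17 were called. Kif11 differed by 3.05 ± 0.46, Prc1 by 2.98 ± 0.45, the depolymerising kinesin Kif2c by 2.89 ± 0.51 and Nuf2 by 2.80 ± 0.44. In Treg at 72 h the order was the other way: 38 of 49 members had the smaller response in vivo and 0 the larger, where 1.34% of all genes differed downward and 0.233% upward, and 23 of those 29 were called. Ncapg differed by -2.90 ± 0.51, Ncapg2 by -2.72 ± 0.60, Bub1 by -2.63 ± 0.55 and Ccna2 by -2.60 ± 0.55. In Tconv at 8 and 72 h and in Treg at 8 and 24 h 0 members were called by limma, with 2, 3, 10 and 25 under an unadjusted p of 0.05. Of all genes 0.233%, 0.00805%, 0.0322% and 0% were higher in these comparisons and 0.258%, 0.0805%, 0.33% and 0.0966% lower. Mice, ages, sexes, sorting and the way KT3 reached the cells differ between the settings and cannot be told apart. The Tconv count at 24 h was 16 without the 0 h array that stood apart, 12 without the cultured 24 h array numbered 1, 15 and 20 without the in vivo arrays of 0 h numbered 2 and 24 h numbered 1, and 0 with array weights. The Treg count at 72 h was 9 without the in vivo 72 h array numbered 2, 12 without the cultured 72 h or in vivo 0 h array numbered 1, and 16 without the cultured 0 h array numbered 1.

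Smc4 behaved unlike the rest. In vivo it measured 11.26 and 11.41 in Treg and 9.77 and 11.33 in Tconv at 24 h, against 11.16 and 11.53 in Treg and 9.30 and 10.50 in Tconv at 0 h. In culture at 0 h it measured 9.54 and 11.15 in Treg and 6.15 and 9.18 in Tconv. Its level was thus high before stimulation except on the cultured Tconv array that stood apart, where 6.15 lay below the array median of 6.86. The arrays of a group lay as far apart as 6.15 and 9.18. Its single call was at 0 h in culture, where Treg exceeded Tconv, and rests on the array that stood apart, as given above.

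Other genes of mitosis, taken from a list of 53 of which 47 were tested, were counted in the same way. The filter on dim genes used all 42 arrays, so some of the 47 may have passed only through 24 or 72 h arrays. How many did was not counted, for this list or for those of regulators, the anaphase-promoting complex and S phase. In cultured Treg at 72 h 42 of 47 rose and 0 fell, with a median of 2.30, where 7.34% of all genes rose, and the midbody protein Cep55 (3.85 ± 0.28), Shcbp1 (3.51 ± 0.32) and the kinetochore protein Cenph (3.28 ± 0.37) rose most. In Tconv in vivo at 24 h 33 rose and 0 fell, where 2.27% of all genes rose, with a median of 1.44, led by Ska3 (2.66 ± 0.31), Stmn1 (2.56 ± 0.39) and Cep55 (2.56 ± 0.28). In Treg in vivo at 24 h 10 rose, where 0.451% of all genes rose, with Cenpk (2.29 ± 0.36), Cenph (2.08 ± 0.37) and Cep55 (1.61 ± 0.28) at the top. Of 11 genes tested of the anaphase-promoting complex and its regulators, the ligase that ends mitosis, 6 rose in cultured Treg at 72 h, where 7.34% of all genes rose, led by its inhibitor Fbxo5 (2.13 ± 0.36), its substrate Pttg1 (1.58 ± 0.20) and the enzyme Ube2c (1.45 ± 0.33). In Tconv in vivo at 24 h 1 of the 11 rose, Pttg1 by 1.16 ± 0.20, where 2.27% of all genes rose.

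Among 18 transcription regulators of mitosis genes, 7 rose and 0 fell in cultured Treg at 72 h, where 7.34% of all genes rose and 1.77% fell, led by the repressor E2f8 (2.25 ± 0.37), the E2F partner Tfdp1 (1.85 ± 0.27) and Foxm1 (1.84 ± 0.23), the forkhead factor of the G2 program. In Tconv in vivo at 24 h, where 2.27% of all genes rose and 0.129% fell, 4 rose and 0 fell: Foxm1 (1.49 ± 0.23), E2f8 (1.47 ± 0.37), E2f1 (1.29 ± 0.25) and E2f2 (1.14 ± 0.22). In Tconv in vivo at 8 h, before the members rose, Tfdp1 rose (1.26 ± 0.27) and E2f2 fell by 0.78 (SE 0.22), among 14.4% of all genes that rose and 6.54% that fell. In Treg in vivo at 24 h 0 of 18 were called by limma, where 0.451% of all genes rose and 0.0322% fell, and 6 were under an unadjusted p of 0.05.

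S phase genes were listed to place the members in the order of the cycle. In Tconv in vivo at 8 h 14 of 25 rose and 0 fell, where 14.4% of all genes rose and 6.54% fell, with a median of 1.04, when 1 of 49 mitosis members had risen. Mcm2 of the replicative helicase rose by 2.07 ± 0.29, the clamp loader Rfc4 by 1.95 ± 0.41 and Mcm5 by 1.75 ± 0.36. At 24 h 18 of the 25 were up, where 2.27% of all genes rose, with a median of 1.40, led by the nucleotide synthesis genes Rrm2 (2.43 ± 0.35) and Tyms (2.11 ± 0.32) and by Pole (2.26 ± 0.36). In cultured Tconv at 24 h 14 of 25 S phase genes rose, where 19.4% of all genes rose, with a median of 0.82, and Rfc4 (2.21 ± 0.41), Mcm3 (1.99 ± 0.34) and Mcm6 (1.99 ± 0.30) led. Without the array that stood apart 1 of the 25 was called there, with a median of 0.65, where 0.934% of all genes rose. In cultured Treg at 72 h 23 of 25 rose, where 7.34% of all genes rose, with a median of 1.98, led by Rrm2 (3.07 ± 0.35), Rfc4 (2.91 ± 0.41) and Ccne2 (2.66 ± 0.33).

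**Figure D5:**
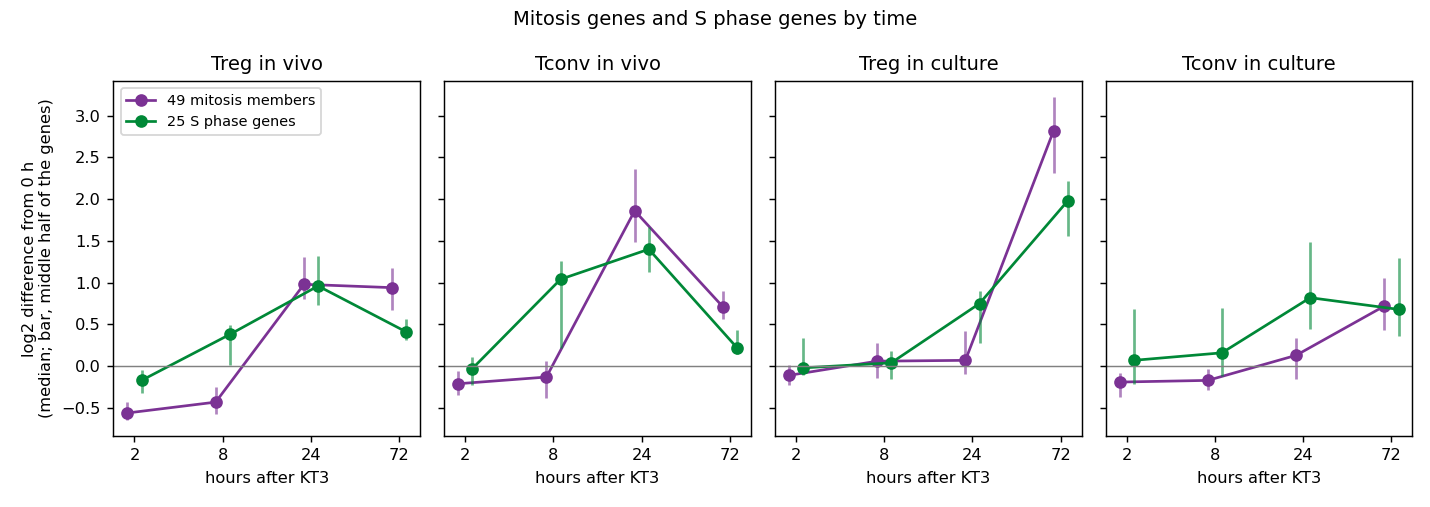
Median log2 difference from 0 h of the 49 mitosis genes and of 25 S phase genes (bars, 25th to 75th percentile of the genes) by hours after KT3, for Treg and Tconv in vivo and in culture. In Tconv in vivo the S phase median is 1.04 at 8 h, when the mitosis median is -0.13, and in cultured Treg at 72 h the medians are 1.98 and 2.82.

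Outside all these lists, the genes whose 20 group means followed the median profile of the members most closely were Arhgap19 (Pearson r = 0.985), Prr11 (0.984), Parpbp (0.980), Knstrn (0.977) and Sgo2a (0.975). These are correlations over groups that share arrays and scale, given as a description. Genes whose names begin with Gm and a number, Mir or Snor, or end in Rik, were left out of this ranking.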

How the data were processed

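RNA of sorted Treg and Tconv was measured on 42 Affymetrix arrays in 22 groups, as the labels give cell type, setting, antibody, hours and array number. The authors deposited linear intensities normalized by RMA, per the labels and the submitters' processing notes, which name RMA and Affymetrix Power Tools without versions; the deposited intensities were taken to log2 here. Of 24922 transcript clusters 21425 carried 1 gene symbol in the platform annotation, 1399 several and 2098 were not listed, and only those with 1 symbol were named. A symbol with several clusters was represented by the one of highest mean. The 7327 genes above the array median on fewer than 2 arrays were removed and 12425 tested. RMA summarises the probes of a cluster and gives no count or depth, so the number of arrays limits the precision, and it can compress low signals, which was not measured here.

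The test was limma 3.58.1 in R 4.3.3 (lmFit and eBayes, two-sided, 22 group means, 20 residual and 5.01 prior degrees of freedom), tested on simulated data beforehand, with Benjamini-Hochberg adjustment over all genes within each of 38 comparisons. Tables and figures were made with Python 3.11.15, numpy 2.4.6, pandas 2.3.3 and matplotlib 3.10.9. The members and all gene lists were chosen with earlier results of these data known. Values on every array of the groups compared are given for 1 leading gene per role and, in each comparison, for up to 4 called members of largest change as differences; for other lists the 3 called genes of largest change are named. Means of marker lists of CD4 T cells, Treg, B cells, plasma cells, CD8 T cells, NK cells, macrophages, neutrophils, dendritic cells, erythroid precursors and platelets were taken per array. Promoters are RefSeq's, matched by symbol for 39 of 49 members.

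Alternatives were quantile normalization, median centring of each array, other filters, the mean of all clusters of a symbol, array weights, the arrays of a setting alone, sorting rounds as a factor, the replicate number as a block and each array left out. The labels do not say that arrays of the same number share an animal or a day. Deviations from the group mean on same-numbered arrays correlated above 0.1 in 32 of 45 pairs of groups in vivo (-0.17 to 0.78, median 0.30). In culture they did so in 28 of 45 (-0.45 to 0.71, median 0.22). Arrays of a number thus often deviated together, which the reported fit does not model and the replicate block does.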

Additional observations from a re-analysis of the deposited data

Results flagged for a closer look

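These results differed between cell types or between settings by a test of the difference itself, limma's interaction term with adjustment over 12425 genes. Groups of 2 arrays are too small to tell which array of a group stands out. The cultured Tconv array of 0 h that stood apart was set against all other arrays. The responses of cultured Tconv given here include it.

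In culture the response to KT3 was larger in Treg than in Tconv for 1 member at 8 h, Kif23, whose difference was 1.33 on the log2 scale. Its call held under 5 of 17 alternatives. Of all genes 0.41% differed upward and 0.241% downward in that comparison. At 72 h the response was larger for 34 of 49 members, and for 15 of the 29 that passed the filter on dim genes without the 24 and 72 h arrays of KT3. There 1.26% of all genes differed upward and 0.523% downward. The differences were 3.50 for Bub1, 3.23 for Ncapg, 3.15 for Cenpe and 3.13 for Ncapg2. Of these 34 calls 0 held under every alternative, and with array weights the count was 0.

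The response of Tconv at 24 h was larger in vivo than in culture for 31 of 49 members and 17 of those 29, with differences of 3.05 for Kif11, 2.98 for Prc1, 2.89 for Kif2c and 2.80 for Nuf2. There 0.604% of all genes differed upward and 0.443% downward. Of these 31 calls 0 held under every alternative, and with array weights the count was 0. The response of Treg at 72 h was smaller in vivo than in culture for 38 of 49 members and 23 of those 29, with differences of -2.90 for Ncapg, -2.72 for Ncapg2, -2.63 for Bub1 and -2.60 for Ccna2. There 1.34% of all genes differed downward and 0.233% upward. Of these 38 calls 9 held under every alternative. Bub1, Ncapg, Cenpe, Kif11, Kif2c and Nuf2 passed the filter on dim genes only through 24 or 72 h arrays. Mice, sorting and the route of KT3 differ between the settings and cannot be told apart.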

How the results depend on the processing

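Over 38 comparisons, 10 settings besides single arrays left out gave 353 counts of called members, of which 275 were within 1.5 times the reported count. Over 371 called pairs of member and comparison, 4702 of 5479 alternative differences kept direction and call, 777 kept direction alone and 0 reversed. The counts against 0 h in cultured Treg at 72 h (48) and in Tconv in vivo at 24 h (46) were within 1.5 times under all of these settings. Below, each count that moved further stands before the reported one, and the cause was not tested. The share of all genes called under each alternative is not given. A moved count alone thus does not show a change particular to the members. With 1 array of a group left out, the remaining one is assumed to vary like the other groups.

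With quantile normalization the counts were 4 for Tconv in vivo at 8 h (against 2), 4 for Tconv in vivo at 72 h (1), 3 for Treg in vivo at 8 h (0), 3 for Treg in vivo at 24 h (10), 0 for Treg in vivo at 72 h (1), 6 for cultured Tconv at 72 against 24 h (3) and 5 for Treg against Tconv in culture at 0 h (3). With median centring they were 0 for Treg in vivo at 72 h, 0 for cultured Tconv at 72 against 24 h, 5 for Treg against Tconv in culture at 0 h, 0 for the Treg minus Tconv response in culture at 8 h (1) and 12 for KT3 against IgG in Treg (6). Centring moved the median of all genes in cultured Tconv at 24 h to 0.43 and quantile normalization moved it to 0.02, against 0.23. Without a filter on dim genes they were 1 for Tconv in vivo at 8 h, 0 for Treg in vivo at 72 h, 2 for cultured Tconv at 24 h (4), 3 for Treg against Tconv in vivo at 0 h (5) and 0 for the response difference in culture at 8 h, which was also 0 with the mean of all clusters of a symbol. The stricter filter, above the median on at least 4 arrays, moved no count that far.

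With the replicate number as a block (replicate block) the counts were 6 for Tconv in vivo at 72 h, 4, 2, 23 and 11 for Treg in vivo at 2, 8, 24 and 72 h (0, 0, 10 and 1), 9, 1 and 8 for cultured Tconv at 2, 8 and 24 h (5, 0 and 4), 4 for cultured Treg at 2 h (2), 7 for cultured Tconv at 72 against 24 h, 8 and 5 for Treg against Tconv at 0 h in vivo and in culture, and 4 for the in vivo minus culture response of Treg at 24 h (0). In culture the number goes with sex and age. With sorting rounds as a factor they were 2 for Tconv in vivo at 72 h, 1, 4 and 3 for Treg in vivo at 2, 24 and 72 h, and 0 for KT3 against IgG in Treg.

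On the arrays of one setting alone, where fewer arrays set the spread, they were 1 and 3 for Tconv in vivo at 2 and 72 h (0 and 1), 3, 3, 2 and 0 for Treg in vivo at 2, 8, 24 and 72 h, 3 for Treg against Tconv in vivo at 0 h, 3 and 1 for cultured Tconv at 2 and 24 h, 1 for cultured Treg at 2 h, and 0 each for cultured Tconv at 72 against 24 h, Treg against Tconv in culture at 0 h and the response difference in culture at 8 h. With array weights they were 2 for Tconv in vivo at 72 h, 6, 2 and 21 for Treg in vivo at 2, 8 and 72 h, 1, 0 and 0 for cultured Tconv at 2, 24 and 72 h (5, 4 and 15), 7 for cultured Tconv at 72 against 24 h, 8 and 0 for Treg against Tconv at 0 h in vivo and in culture, 0 and 0 for the response difference in culture at 8 and 72 h (1 and 34), and 0 for the in vivo minus culture response of Tconv at 24 h (31).

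Alternatives chosen after seeing the data left out the cultured Tconv array of 0 h numbered 1 for the S phase and other lists, of which the S phase count in cultured Tconv at 24 h was 1 (14), and the 3 arrays of narrowest range, numbered 1, of cultured Tconv at 0 and 8 h and cultured Treg at 0 h. The counts were then 1 and 4 for Tconv in vivo at 2 and 72 h, 3, 2 and 16 for Treg in vivo at 2, 8 and 24 h, 2, 0 and 9 for cultured Tconv at 2, 24 and 72 h, 0 for cultured Treg at 8 h (1), 7 for cultured Tconv at 72 against 24 h, 0 for Treg against Tconv in culture at 0 h, 0 and 21 for the response difference in culture at 8 and 72 h, 18 for KT3 against IgG in Treg, and 18 and 1 for the in vivo minus culture response at 24 h in Tconv and Treg.

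With single arrays left out in turn, 157 of 230 counts were within 1.5 times the reported one. In vivo the counts ran from 0 to 2 for Tconv at 8 h, 38 to 46 at 24 h and 0 to 2 at 72 h, from 5 to 30 for Tconv at 72 against 24 h (27), from 30 to 44 for KT3 against IgG in Tconv (41), and from 0 to 5 for Treg against Tconv at 0 h. For Treg in vivo they ran from 0 to 3 at 2 h, 0 to 2 at 8 h, 0 to 23 at 24 h, 0 to 8 at 72 h and 0 to 25 for KT3 against IgG. In cultured Tconv they ran from 2 to 10 at 2 h, 0 to 5 at 8 h, 0 to 8 at 24 h, 7 to 18 at 72 h and 0 to 5 at 72 against 24 h. In cultured Treg they ran from 1 to 3 at 2 h, 0 to 1 at 8 h and 0 to 2 at 24 h, and stayed at 48 at 72 h and at 47 at 72 against 24 h. For Treg against Tconv in culture at 0 h the range was 0 to 8. For the Treg minus Tconv response in culture it was 0 to 1 at 2 h, 0 to 1 at 8 h, 0 to 3 at 24 h and 23 to 41 at 72 h. For the in vivo minus culture response it was 0 to 3, 12 to 42 and 0 to 2 in Tconv at 8, 24 and 72 h, and 0 to 1, 0 to 1 and 9 to 40 in Treg at these times. The counts for Tconv in vivo at 2 h, Treg in vivo at 72 against 24 h and the Treg minus Tconv response in vivo stayed at 0 at each such fit.

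The design has 2 arrays a group and 1 for IgG, so calls near the threshold turn on single arrays.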
